A study of Rattus norvegicus with 12 samples.

Results

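Haemoglobin RNA was followed rat by rat in whole lung after silica or saline. The genes were those with the symbols Hbb-b1, Hbe2 and LOC287167 in the gene table of the study, which gave 1 array probe for each, or 3 of 1099 named genes and 3 of 51255 probes in all. All 12 rats were male Wistar rats, and each had an array of its own. The silica groups received 50 mg/mL silicon dioxide in the trachea, which the labels also give as 50 mg/kg, and the saline groups received saline of equal volume. Lung was taken at day 14 or day 28, with 3 rats in each of the 4 groups. For the arrays of day 14 the titles and time points say 14 days, whereas the protocol text is worded for 28 days, and the methods describe rats killed on day 28 only. The methods state that the lungs of these day 28 rats were chosen by their histology, so they are not a random draw from each group. How the lungs of day 14 were chosen is not described.

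Haemoglobin carries oxygen in red blood cells and is built from alpha-like and beta-like chains, each holding a haem group. The alpha-like genes and the beta-like genes lie in separate clusters, and developing red cells read them in balance. Circulating red cells of mammals have no nucleus, although young red cells still hold haemoglobin RNA, so RNA of whole lung includes the haemoglobin RNA of the blood in its vessels. Hbb-b1 encodes a beta chain of adult haemoglobin and Hbe2 a beta-like chain of the epsilon type, and both are on chromosome 1 of the RefSeq rat assembly GRCr8. LOC287167 encodes an alpha chain, is on chromosome 10, and has the symbol Hba-a3 in that assembly. In such bulk tissue, fewer red cells and less haemoglobin RNA per cell cannot be told apart. Whether blood was rinsed from the lungs is not given in the sources used here.

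The 3 probes are shown because every value below is read by them, and because probes of related genes could bind each other's RNA. They are written 5′ to 3′ as deposited with the arrays. Capitals mark the longest run, where it has at least 12 bases, that a probe shared with another haemoglobin-type probe printed here.

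Hbb-b1 probe: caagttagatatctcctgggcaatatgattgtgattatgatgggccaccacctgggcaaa
Hbe2 probe: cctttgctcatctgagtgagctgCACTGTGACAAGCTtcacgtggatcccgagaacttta
LOC287167 probe: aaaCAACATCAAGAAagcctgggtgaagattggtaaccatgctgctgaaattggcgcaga

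The Hbb-b1 probe held no such run. That of the Hbe2 probe, 14 bases, was shared with a probe that has no gene name here, and that of the LOC287167 probe, 12 bases, with a probe for the start of alpha chain transcripts described below. For these runs, probes were compared with each other and not with whole transcripts. Whether a probe bound the RNA of a related gene was not tested. On each of the 12 arrays the 3 probes stood well above background, and no spot of any array was saturated. An array had 60.46% to 69.52% of all its probes well above background. The values for slide 1, which held the 3 silica arrays and saline replicate 1 of day 28, lay between 60.46% and 63.25%. The other 8 arrays were on slide 2.

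At day 14, Hbb-b1 gave normalized log2 signals of 13.57, 13.72 and 14.6 in the 3 saline rats and of 11.87, 12.49 and 12.97 in the 3 silica rats. Every silica rat was below every saline rat, and the nearest rats of the groups were 0.6 apart on the log2 scale. The mean log2 signal was 13.96 ± 0.56 (SD, n = 3) in saline and 12.44 ± 0.55 (SD, n = 3) in silica. Hbb-b1 therefore fell by 1.52 on the log2 scale (SE 0.35), which is 2.87-fold (95% confidence interval 1.62 to 5.08), and it was called with an adjusted p of 0.0408 in the limma fit over 33615 probes. The call here and below asks for both an adjusted p no higher than 0.05 and a change of 2-fold or more.

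Hbe2 gave log2 signals of 12.52, 12.81 and 13.54 in the saline rats of day 14 and of 10.98, 11.49 and 11.9 in the silica rats. The groups did not overlap, with 0.62 between the nearest rats. Hbe2 fell by 1.5 on the log2 scale (SE 0.32), or 2.83-fold (95% confidence interval 1.69 to 4.74), with an adjusted p of 0.0329 in limma. Its change and that of Hbb-b1 differed by less than the standard error of either.

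LOC287167, the alpha chain gene, gave 7.55, 8.55 and 8.98 in the saline rats of day 14 and 6.55, 6.92 and 7.48 in the silica rats, again as log2 signals. The groups nearly touched, since saline replicate 1 was 0.07 above silica replicate 3. The mean log2 difference was -1.37 (SE 0.39), with a 95% confidence interval of -2.28 to -0.47, and it was not called (adjusted p = 0.0679 in limma). Without saline replicate 1, the saline rat with the lowest value, the difference was -1.78 and was called (adjusted p = 0.0458). When any other rat of day 14 was left out it was not called, with adjusted p from 0.0708 to 0.186 in limma.

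Of the 33615 probes tested at day 14, 2.34% were called as lower in silica, and 2 of the 3 haemoglobin probes were. This share stands for 788 probes, a count that went to 62 without saline replicate 3 and to 1431 without silica replicate 2, and that lay between 89 and 486 without any of the other rats. The arrays of silica lay below all arrays of saline for 18.9% of these probes, and for all 3 haemoglobin probes. Of the tested probes, 273 had a more negative log2 difference than Hbb-b1, 291 than Hbe2 and 417 than LOC287167, while the median over all tested probes was -0.01. More probes, 2510, 1899 and 4209 in the same order, had a smaller p in limma, in either direction. The calls of Hbb-b1 and Hbe2 were both lost when any of the 3 saline rats, silica replicate 1 or silica replicate 2 was left out, with adjusted p from 0.0519 to 0.117, and were kept without silica replicate 3. The direction was the same in all these fits, with log2 differences from -1.78 to -1.2. Both calls were also lost with no filter on dim probes (adjusted p = 0.117 and 0.0996) and with all 12 arrays in 1 fit (0.116 and 0.114), and that of Hbb-b1 with 75th percentile scaling (0.0719).

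**Figure D1:**
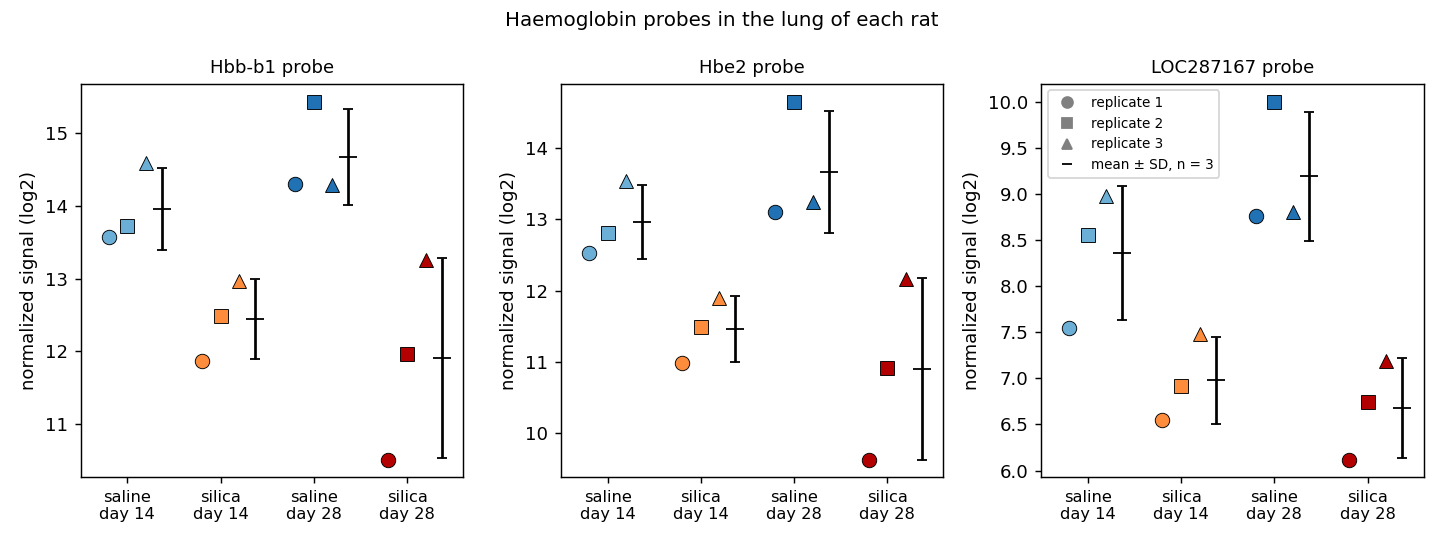
Normalized log2 signal (vertical axis, a separate range in each panel) of the Hbb-b1, Hbe2 and LOC287167 probes in each rat, by group. Symbols are rats and the bar beside them is the mean ± SD of 3 rats. The silica rats are below the saline rats of the same day in every panel, by as little as 0.07 for LOC287167 at day 14, and the silica group of day 28 is the most spread for Hbb-b1 and Hbe2.

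The values of day 28 are given without a test, because the genes were taken from a table of genes that differed between these same silica and saline arrays. By the call used at day 14, 4.64% of the 32097 probes measured at day 28 were lower in silica, and all 3 haemoglobin probes had silica arrays below all saline arrays, as did 24.2% of all probes. The saline rats had Hbb-b1 log2 signals of 14.31, 15.44 and 14.29, and the silica rats 10.51, 11.97 and 13.26. The silica rats were unlike each other: replicate 1 was 6.73-fold below replicate 3, whereas the fold from lowest to highest was 2.04, 2.14 and 2.23 in the saline group of day 14, the silica group of day 14 and the saline group of day 28. The mean difference was -2.77 on the log2 scale, or 6.82-fold lower in silica, beside an SD within groups of 1.08.

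Hbe2 had log2 signals of 13.1, 14.65 and 13.24 in the saline rats of day 28 and of 9.63, 10.91 and 12.16 in the silica rats. The same silica rat was lowest and the same saline rat highest as for Hbb-b1. The mean log2 difference was -2.76, or 6.79-fold lower in silica, with an SD within groups of 1.08.

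LOC287167 had log2 signals of 8.76, 10.0 and 8.8 in the saline rats of day 28 and of 6.12, 6.74 and 7.19 in the silica rats. Its mean log2 difference was -2.51, or 5.68-fold lower in silica, with an SD within groups of 0.63. Here the silica rats were closer together, with 2.1-fold from the lowest to the highest. LOC287167 had the lowest signals of the 3 probes. In the same silica rats the alpha chain start probe described below had 6.13-fold from lowest to highest, and the beta chain start probe 7.4-fold. The reason for the narrower range of LOC287167 was not tested.

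Slide and group overlapped at day 28. On slide 1 alone, where the 3 silica arrays can be set against saline replicate 1 only, the log2 difference was -2.4 for Hbb-b1, -2.2 for Hbe2 and -2.08 for LOC287167. Each of the 3 silica rats was below that saline rat, by -3.81 to -1.05 for Hbb-b1, -3.48 to -0.94 for Hbe2 and -2.64 to -1.57 for LOC287167. The highest saline signals of day 28 were those of replicate 2, which was on slide 2. The part of the slide in the differences of day 28 was not tested.

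Between the days, the saline means of day 28 were above those of day 14 by 0.72 for Hbb-b1, 0.71 for Hbe2 and 0.83 for LOC287167 on the log2 scale. The silica means differed the other way, by -0.53, -0.55 and -0.3 in the same order. The silica ranges of the days overlapped for all 3 probes, and for Hbb-b1 and Hbe2 the silica rats of day 14 all lay between the lowest and the highest silica rat of day 28. These differences use the groups from which the genes were chosen and were not tested.

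The 3 probes moved together from rat to rat within groups. The rat with the lowest value and the rat with the highest value of a group were the same for all 3 probes in 3 groups. In each of these groups replicate 1 was lowest and replicate 3 highest. In the saline group of day 28, replicate 2 was highest for all 3, while replicates 1 and 3 lay within 0.13 of each other on the log2 scale for each probe. After the mean of its group was taken from each value, Hbb-b1 and Hbe2 had a Pearson r of 0.988 and a Spearman rho of 0.951 over the 12 arrays. For Hbb-b1 and LOC287167 r was 0.841 and rho 0.93, and for Hbe2 and LOC287167 r was 0.88 and rho 0.902. In an exact two-sided permutation test over all ways to reorder rats within groups, the p of r was 0.00154, 0.00154 and 0.000772, where 0.000772 is the smallest it can give. The adjusted p over the 3 pairs was 0.00154 for each r and 0.00231 for each rho, whose own exact permutation p was 0.00231, 0.00154 and 0.000772. The points share their arrays and the normalization.

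The 2 rats farthest from the middle were found by the gene named first in each pair, Hbb-b1 or Hbe2. They were silica replicates 1 and 3 of day 28 for each of the 3 pairs. Without these 2 rats, r was 0.977 for Hbb-b1 and Hbe2, 0.917 for Hbb-b1 and LOC287167 and 0.936 for Hbe2 and LOC287167, each with an exact permutation p of at most 0.00926. LOC287167 itself deviated most in saline replicate 2 of day 28 (0.811) and saline replicate 1 of day 14 (-0.809), which were kept in these values. On the 6 arrays of day 14 alone, which the choice of genes did not use, r was 0.993, 0.862 and 0.915 in the same order, with exact permutation p of 0.0278, 0.0833 and 0.0556 over 36 arrangements. None of the 3 passed after adjustment, where each was 0.0833.

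**Figure D2:**
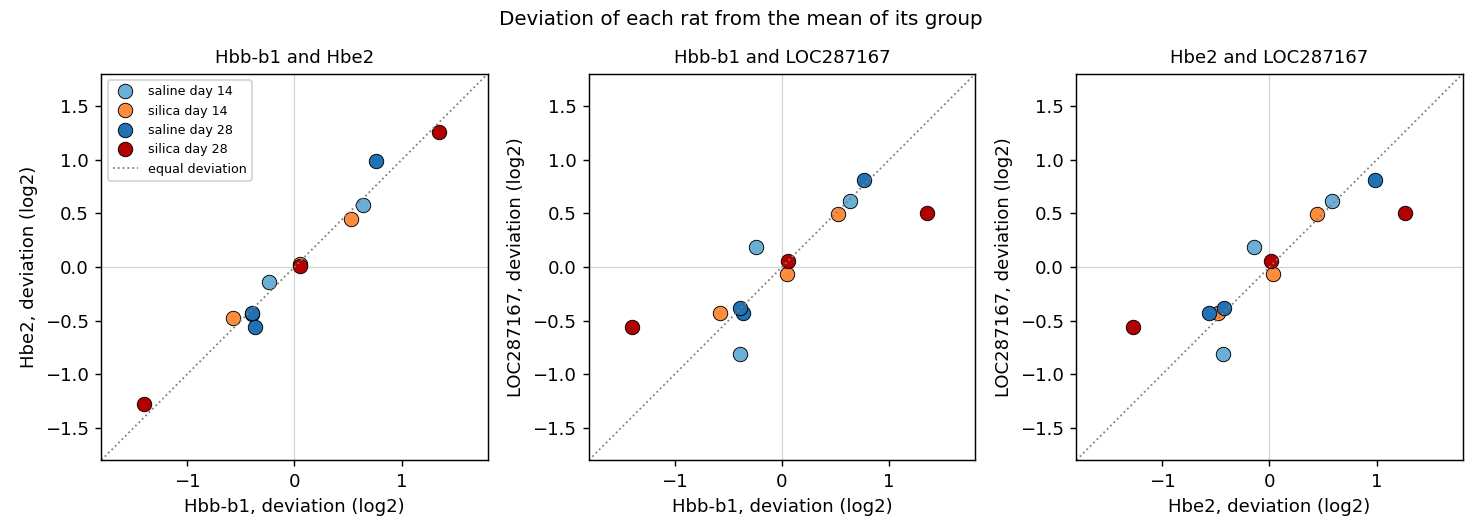
Deviation of each of the 12 rats from the mean of its group (log2 signal, both axes) for the 3 pairs of haemoglobin probes, with equal deviation as a dotted line. The points of Hbb-b1 and Hbe2 lie along that line (r = 0.988), and against LOC287167 the outer silica rats of day 28 deviate less in LOC287167 than in the other probe.

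The beta-like probes kept a nearly fixed distance. Whether both bound the same RNA was not tested. The log2 difference between the Hbb-b1 and Hbe2 signals of an array had an SD of 0.12 over the 12 arrays, whereas each probe itself had a within-group SD of 0.86 and 0.84. The difference of Hbb-b1 from LOC287167 had an SD of 0.43 over the arrays, and within the silica group of day 28 it had a range of 1.68. The median within-group SD over the 28088 probes well above background on every array was 0.2. Only 131 of them varied more within groups than Hbb-b1, 140 more than Hbe2 and 444 more than LOC287167.

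Other haemoglobin probes on the array were sought by sequence, because the deposited array files hold no gene names. Of 13 protein-coding haemoglobin genes in RefSeq, 11 had an entry with their first 50 transcribed bases. A run of at least 30 identical bases was found in 2 probes, and 0 genes outside this family shared such a run with them. They are shown because they read the start of beta and alpha chain transcripts. Capitals mark the run found in the transcript. Of the beta probe, bases 21 to 60 are given, with 30 of its 50 shared bases.

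Beta chain start probe, matched to Hbb: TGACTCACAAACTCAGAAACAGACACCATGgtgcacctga
Alpha chain start probe, matched to Hba-a2: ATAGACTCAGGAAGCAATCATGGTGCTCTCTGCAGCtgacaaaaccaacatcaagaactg

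The alpha chain start probe shared 36 bases with Hba-a2, 35 with Hba-a1 and 32 with Hba-a3, the last being LOC287167, so its signal cannot be assigned to 1 alpha gene. The beta chain start probe had log2 signals of 9.78, 10.21 and 10.79 in the saline rats of day 14 and of 8.2, 8.72 and 9.21 in the silica rats. It fell by 1.55 on the log2 scale (SE 0.33, adjusted p = 0.0325 in limma), or 2.92-fold, with no overlap of the groups.

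The alpha chain start probe had 12.11, 12.61 and 13.04 in the saline rats of day 14 and 10.53, 11.07 and 11.48 in the silica rats. It fell by 1.56 (SE 0.31, adjusted p = 0.0275 in limma), or 2.95-fold. RNA read as alpha chain was called lower at day 14 by this probe and not by that of LOC287167, while the 95% intervals of the 2 probes overlapped, at -2.27 to -0.84 and -2.28 to -0.47. The call of the beta chain start probe was kept without silica replicate 3 and lost when any other rat of day 14 was left out, with adjusted p from 0.0521 to 0.105. That of the alpha chain start probe was lost without saline replicate 2 (adjusted p = 0.0954) or saline replicate 3 (adjusted p = 0.0964). Both were also lost with no filter on dim probes and with all 12 arrays in 1 fit, with adjusted p from 0.0882 to 0.14.

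At day 28, the beta chain start probe had log2 signals of 10.47, 12.13 and 10.52 in saline and of 6.88, 8.31 and 9.77 in silica. The alpha chain start probe had 12.88, 14.31 and 12.81 in saline and 9.42, 10.77 and 12.04 in silica. For both, silica replicate 1 was again the lowest rat and saline replicate 2 the highest. The log2 differences of -2.72 and -2.59 are given as description. On slide 1 alone they were -2.15 and -2.13.

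**Figure D3:**
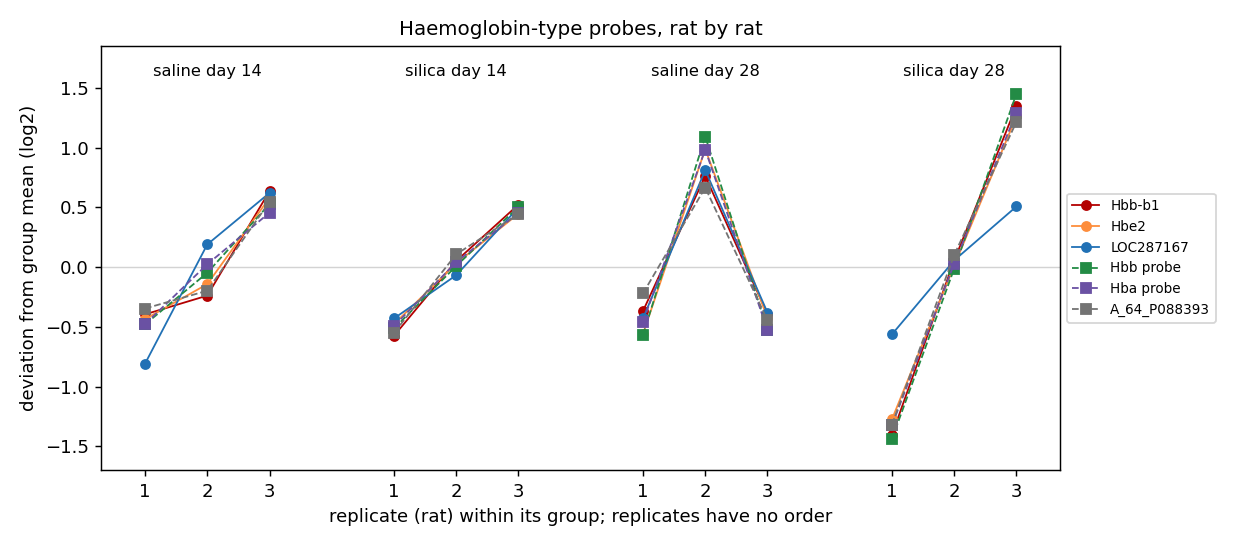
Deviation from the group mean (log2 signal, vertical axis) of the 3 haemoglobin probes, the 2 start probes and the unnamed probe A_64_P088393 for each of the 12 rats (horizontal axis). Lines join the rats of a group only to guide the eye, and all probes are lowest in silica replicate 1 of day 28 and highest in silica replicate 3 of that group except LOC287167, which is lowest in saline replicate 1 of day 14 and highest in saline replicate 2 of day 28.

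Probes without a gene name here were also searched for the same pattern, and those given now were chosen after their values were seen. Among 27116 unnamed probes well above background on all 12 arrays, 5 had an r of at least 0.95 with the mean within-group deviation of Hbb-b1, Hbe2 and LOC287167. The 2 start probes were among them, with r of 0.989 for beta and 0.988 for alpha. Probe A_44_P541461 had r of 0.985, a day 14 log2 difference of -1.4 and an adjusted p of 0.0386 in limma. Probe A_64_P088393 had r of 0.973 and, at day 14, a difference of -1.54 (adjusted p = 0.0307). The remaining probe had r of 0.966 and a difference of -0.97, and was not called. The pair is printed since their sequences can be looked up, with capitals as for the first 3 probes.

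A_44_P541461: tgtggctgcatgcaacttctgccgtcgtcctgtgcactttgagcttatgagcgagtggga
A_64_P088393: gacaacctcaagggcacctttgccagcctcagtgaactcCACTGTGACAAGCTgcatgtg

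A_64_P088393 had the same base as the Hbe2 probe at 35 of 44 positions in an alignment without gaps. A_44_P541461 shared at most 8 bases in a row with any other probe printed here, and that run was with A_64_P088393, which itself has no gene name here.

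The stretches before the start of transcription are given because motifs can be compared in them between genes on different chromosomes. They cover the members with an entry in the RefSeq promoter table, Hbb-b1 and LOC287167 under its symbol Hba-a3. A part of these promoters in the rat to rat pattern was not tested. Capitals mark the CACCC motif, the CCAAT box, the AGATAA motif and the TATAAA box on either strand. They were searched from 250 bases before to 50 bases after the start. The 150 bases before the start are printed, in the direction of transcription. No entry was held for Hbe2.

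Hbb-b1, chr1:167643521-167643670, minus strand, GRCr8: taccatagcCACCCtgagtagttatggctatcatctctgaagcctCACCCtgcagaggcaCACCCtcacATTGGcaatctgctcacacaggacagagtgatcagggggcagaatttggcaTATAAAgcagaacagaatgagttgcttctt
Hba-a3, chr10:15816944-15817093, minus strand, GRCr8: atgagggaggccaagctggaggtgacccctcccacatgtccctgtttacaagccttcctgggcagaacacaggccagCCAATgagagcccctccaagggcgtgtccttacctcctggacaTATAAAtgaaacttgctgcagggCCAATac

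Hbb-b1 held CACCC, known from beta-like haemoglobin promoters, at 3 places that begin 141, 105 and 90 bases before the start, and Hba-a3 held none. Both held CCAAT, at 81 bases on the reverse strand for Hbb-b1 and at 73 and 7 bases for Hba-a3, and both held TATAAA at 30 bases. AGATAA, a form of the motif bound by GATA factors, was in neither window. Over all 33469 promoters of this length, the CACCC motif was found in 54.9%, the CCAAT box in 37.5%, the AGATAA motif in 11.6% and the TATAAA box in 14.2%. Of the 11 haemoglobin promoters, 9, 10, 0 and 7 held them in this order. The CACCC motif was not confined to the beta-like genes. It was also held by Hba-a1, Hba-a2, Hbq1b and Hbz on chromosome 10, and Hbe1 on chromosome 1 held none. These matches are letters in a window, and the arrays hold no measurement of binding.

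Genes that mark red cells and the handling of free haemoglobin were read from lists of markers, of which only those with a named probe could be used. The study had listed these probes for a difference between silica and saline at day 28, so counts over them are not independent evidence of a direction. Of 30 erythroid genes 1 had one. This was Sptb, which encodes the beta spectrin of the red cell skeleton. Its log2 signals were 3.83 to 4.63 in saline and 4.05 to 4.78 in silica at day 14, close to the background, and it stood well above background on 9 arrays only. Its day 14 difference of 0.1 (SE 0.26, adjusted p = 0.85 in limma) had a 95% confidence interval of -0.52 to 0.71. The lowest Sptb signal on any array was 3.56, beside a saline median of 4.42 at day 14. Whether so dim a probe could show a fall of the size seen for haemoglobin was not tested, and it is not used as a red cell reference here. The sign of this small difference turned with normexp background correction (-0.01). At day 28 the Sptb signals were 3.56 to 4.08 in silica and 4.72 to 6.01 in saline, with a mean log2 difference of -1.42, given without a test. The other 29 erythroid genes were not analysed here.

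Of 13 genes for the handling of haemoglobin and haem, 4 had a named probe, and 2 rose at day 14 while 0 fell, with a median log2 difference of 1.21 beside -0.01 over all probes. Over all probes 2.65% were called as higher. Hmox1, the haem oxygenase that opens the haem ring, rose by 2.09 (SE 0.29, adjusted p = 0.0118 in limma), from 8.66 to 9.64 in saline to 11.05 to 11.73 in silica. Ftl1, the light chain of the iron store ferritin, rose by 1.36 (SE 0.2, adjusted p = 0.0139). The differences of Hp, the plasma protein haptoglobin that binds free haemoglobin, and of Hpx, haemopexin that binds free haem, were 1.05 (adjusted p = 0.113) and 0.91 (adjusted p = 0.103). With normexp background correction the Hpx difference was 0.45. At day 28 the differences were 2.65 for Hmox1, 1.69 for Ftl1, 1.25 for Hp and 1.69 for Hpx, without a test.

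Markers of other cells moved with the silica groups too. Of 10 endothelial genes, those of the vessel lining, 8 had a named probe, and 5 of these fell at day 14 while 0 rose, with a median log2 difference of -1.33 beside -0.01 over all probes, of which 2.34% were called lower. Their mean log2 signal was 12.1 to 12.33 in saline and 10.14 to 11.39 in silica at day 14. Plvap, a protein of capillary pores, had a difference of -2.06 (adjusted p = 0.0286), Ace -1.46 (adjusted p = 0.0308), and Thbd, the thrombin receptor of the vessel wall, -1.34 (adjusted p = 0.0409), all in limma. All 5 macrophage genes with a named probe, of 6 listed, rose, with a median of 3.44, where 2.65% of all probes were called higher, and with mean signals of 7.94 to 8.85 in saline and 11.41 to 11.72 in silica. Ppbp, the 1 platelet gene of 8 with a named probe, had a difference of -0.71 (adjusted p = 0.275), which was -0.37 with normexp. Aqp5 of the alveolar epithelium, the 1 lung epithelial gene with a named probe, was well above background on all 12 arrays and had -0.93 (adjusted p = 0.145), and Cd8a of lymphocytes had 0.45 (adjusted p = 0.631). Cygb, a globin outside red cells, had 0.54 (adjusted p = 0.354), and no neutrophil gene of 7 had a named probe. The part of these cells in the haemoglobin signals was not tested.

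**Figure D4:**
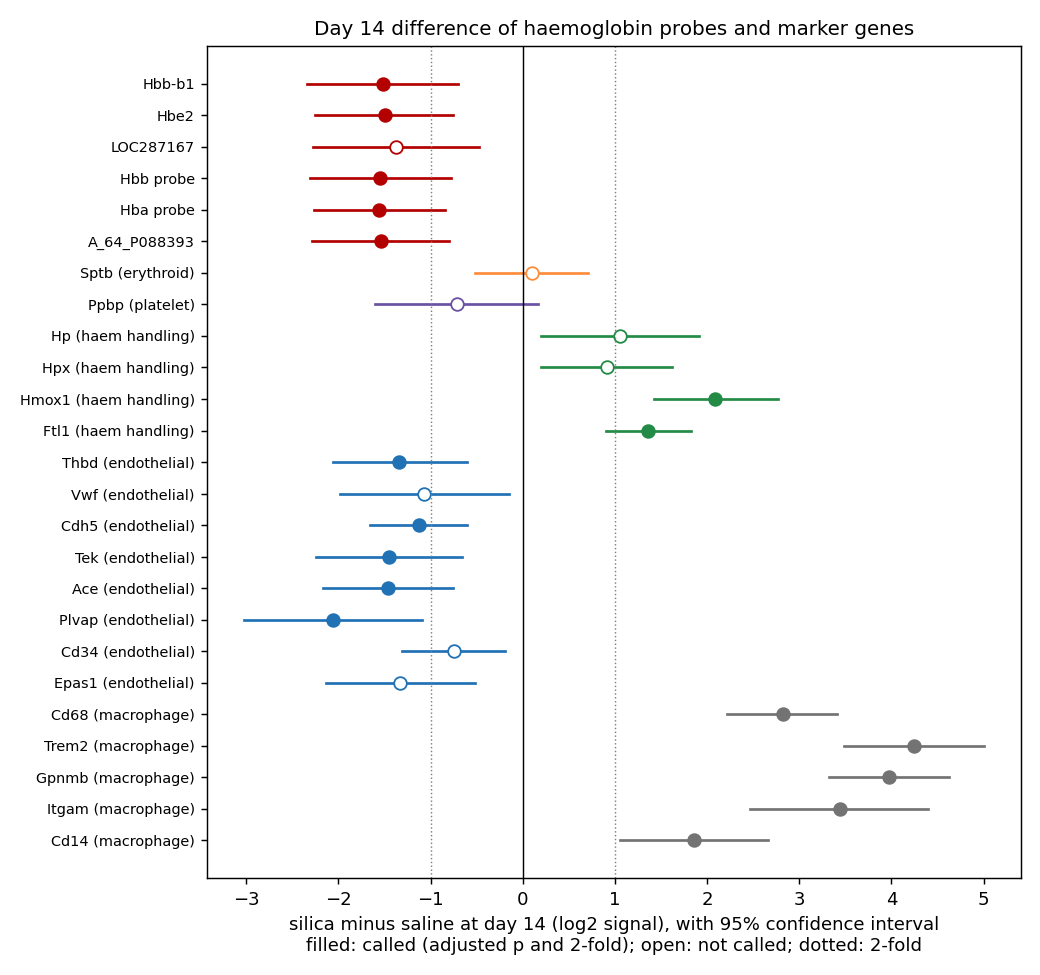
Silica minus saline at day 14 (log2 signal, horizontal axis) with 95% confidence intervals for haemoglobin probes and marker genes; filled points were called, open points were not, and dotted lines mark a 2-fold difference. The haemoglobin probes, and the unnamed probe A_64_P088393 drawn with them, lie between -1.56 and -1.37, and Sptb lies at 0.1.

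The named genes whose rat to rat pattern was most like that of haemoglobin were ranked by the Pearson r of their within-group deviations with the mean deviation of the 3 probes, over 12 arrays and 831 named genes well above background on all of them. The median r over these genes was 0.15, and 0 genes reached 0.95. The ranked genes had been chosen by the study for their day 28 difference, so they are no sample of all genes, and the r values are given as likeness only. Cdo1, which encodes cysteine dioxygenase, was highest with r of 0.901, followed by Frmd4a with 0.9 and Lims2, a protein of focal adhesions, with 0.859. P2rx1, an ATP-gated channel of platelets and smooth muscle, had r of 0.833, Zbtb8a 0.819, and Tppp, which binds tubulin, 0.805. Itga8, an integrin alpha chain, had 0.803, Ncald, a calcium sensor, 0.789, Susd2 0.786, and Lipe, the hormone-sensitive lipase, 0.784.

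Their within-group SD was 0.22 to 0.65, below the 0.86 of Hbb-b1. At day 14, Cdo1 (-1.41, adjusted p = 0.0211 in limma), Lims2 (-1.44, adjusted p = 0.0182), P2rx1 (-1.49, adjusted p = 0.00732), Ncald (-1.17, adjusted p = 0.0274), Susd2 (-1.8, adjusted p = 0.0488) and Lipe (-1.01, adjusted p = 0.0356) were called lower in silica. Frmd4a, Zbtb8a, Tppp and Itga8 were not called, with log2 differences of -0.51, -0.73, -1.05 and -0.81. Their adjusted p in limma was 0.102, 0.0412, 0.0861 and 0.0411, so Zbtb8a and Itga8 missed the call only by the 2-fold rule. The genes that moved most against haemoglobin within groups were Frem1, an extracellular matrix protein, with r of -0.89, the transcription factor Irf4 with -0.724, the kinase Ikbke with -0.723, the chemokine Ccl24 with -0.716 and the lipid flippase Atp8b4 with -0.679. Of these, Frem1 (1.26, adjusted p = 0.0255) and Irf4 (1.03, adjusted p = 0.0117) were called higher in silica at day 14. Atp8b4 (0.91, adjusted p = 0.0152 in limma) missed the call only by the 2-fold rule.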

How the data were processed

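Cy3-labelled lung RNA of 12 rats was read on single-colour Agilent arrays. The authors deposited spot intensity files of Agilent Feature Extraction 10.7.1.1, corrected for background and gradients but not between arrays, and a table of log2 signals that was quantile normalized in GeneSpring per the methods. Here 1439 control spots per array and outlier spots were left out, spots of a probe were averaged, and the log2 processed intensity was quantile normalized over all 12 arrays. It differed from the deposited log2 table by a median of 0.00024. Gene names came from the 1279 rows held here of the study's gene table, its first part, whose probe sequences equal those on the arrays. Its fold change and p columns hold the study's own comparison and were not used.

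A probe entered the test when all 3 arrays of either day 14 group showed it well above background. Tests were run with limma 3.58.1 in R 4.3.3 on the 6 arrays of day 14, with Benjamini-Hochberg adjustment. In simulated data for this comparison over 33615 probes, the fit called 87% of probes changed by 2 and 97% of those changed by 3 on the log2 scale. Smaller changes, such as those of the haemoglobin probes at day 14, were not simulated. These probes also varied more within groups than most probes, so the shares do not apply to them. The number of arrays, 3 per group, limits the precision. An exact permutation test of 3 rats against 3 cannot go below 0.1. Covariation was tested by exact two-sided permutation in Python 3.11.15, numpy 2.4.6, pandas 2.3.3 and scipy 1.17.1, and plots used matplotlib 3.10.9. The named genes were the 3 haemoglobin genes, haemoglobin probes matched by sequence, listed markers with a named probe, and the 10 genes most and 5 least alike in pattern, by the brightest probe of a gene.

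A match to proteins had been planned. No protein table was held, so probes were matched to the first 50 transcribed bases instead, a choice made after seeing the data. The genes, lists and tests were chosen with earlier results of these data known. The alternatives were scaling to the 75th percentile, normexp (offset 50), normalization within a day, the deposited table, no filter, all 12 arrays in 1 fit, a replicate block, the methods' t-test, leaving out rats and, for covariation, Spearman's rho and day 14 alone.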

Additional observations from a re-analysis of the deposited data

How the results depend on the processing

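At day 14 the direction of Hbb-b1, Hbe2, LOC287167 and both start probes was the same in all alternatives run. The Hbb-b1 call was lost with 75th percentile scaling (-1.28, adjusted p = 0.0719). With normexp the LOC287167 difference was -1.08 at day 14 and -2.0 at day 28, beside -1.55 and -2.76 for Hbb-b1. With no filter on dim probes, with all 12 arrays in 1 fit and with the methods' t-test after Benjamini-Hochberg adjustment, the log2 differences of Hbb-b1 (-1.52), Hbe2 (-1.5), the beta chain start probe (-1.55) and the alpha chain start probe (-1.56) stood but were not called, with adjusted p of 0.0882 to 0.168. LOC287167 was not called in these settings either, with adjusted p of 0.168 with no filter, 0.0585 with all 12 arrays and 0.217 with the t-test. The t-test without adjustment gave p of 0.0282 for Hbb-b1, 0.0203 for Hbe2 and 0.0521 for LOC287167. Leaving out a rat gave -1.78 to -1.2 for Hbb-b1, -1.72 to -1.21 for Hbe2, -1.78 to -1.06 for LOC287167, -1.8 to -1.28 for the beta and -1.8 to -1.31 for the alpha chain start probe. Sptb, never called, turned sign with normexp (-0.01) and without saline replicate 1 (-0.13) or silica replicate 1 (-0.1), with a range of -0.13 to 0.27 over the rats left out. Of the other marker genes, none turned sign under the 4 other normalizations. Of the calls, only that of Cdh5 was lost (-0.9 with 75th percentile scaling), and Epas1 was gained (-1.37 with normexp).

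Rats with the same number in silica and saline did not deviate together over all probes (r of 0.0245, -0.17 and 0.0635). For Hbb-b1, Hbe2 and LOC287167, however, replicate 1 was lowest and replicate 3 highest in both groups of day 14. The labels do not say that the numbers pair rats, and these values do not settle it for haemoglobin. With the replicate block LOC287167 was called (-1.37, adjusted p = 0.0224), Hbb-b1 and Hbe2 stayed called, and the count of calls went from 1678 to 1620. The SE of Hbb-b1 was 0.18 with the block and 0.35 without.

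At day 14, 890 probes were called higher and 788 lower. These counts were 424 and 279 with normexp, 337 and 117 with no filter, and 1 and 0 with the methods' t-test after adjustment (1877 in all at an unadjusted p of at most 0.05 and 2-fold). Leaving out a rat gave 280 to 940 higher and 62 to 1431 lower. The lowest and highest of the latter came without saline replicate 3 and without silica replicate 2. At day 28 the differences moved by less than the SD within groups. They were -3.44 to -2.07 for Hbb-b1, -3.39 to -2.13 for Hbe2 and -2.76 to -2.1 for LOC287167 with a rat left out.

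The correlations within groups kept their call except on day 14 alone, where r was 0.993, 0.862 and 0.915 and the adjusted p 0.0833. Without any of the 12 rats they were 0.979 to 0.996 for Hbb-b1 and Hbe2, 0.818 to 0.9 for Hbb-b1 and LOC287167 and 0.834 to 0.937 for Hbe2 and LOC287167. Causes were not tested.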
